A study of Arabidopsis thaliana with 12 samples.

Results

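The genes described here encode 23 protein families of the large subunit of the cytosolic ribosome in Arabidopsis thaliana, from L3 to L30. They are a given list of 55 gene identifiers, with 2 to 4 paralogues, copies of 1 ancestral gene, listed for each family. The families L7, L8, L13, L18, L18a and L30 have further annotated genes outside the list. Statements on a family therefore cover its listed genes. In the tables that the authors deposited, 54 of the 55 stood in a locus of their own, among 19647 loci tested for the response of wild type to abscisic acid (ABA), the hormone of drought stress and seed dormancy. All 54 were tested in every comparison, so that none was lost to a filter on low values. The L13 gene AT3G49010 (BBC1) was merged with AT3G48960 into 1 long locus and is given apart. The seedlings were wild type (Col-0) or rbm25-1, a mutant in the Col-0 background of the gene for the splicing factor RBM25, and all were 2 weeks old. The 4 groups were wild type untreated, wild type with ABA, rbm25-1 untreated and rbm25-1 with ABA, with 3 samples of polyadenylated RNA each, 12 in all. ABA was sprayed at 0.1 mM and the seedlings were taken 6 hours later, whereas untreated groups are labelled as without treatment and stand at 0 hours. No mock spray is named, so that spraying, the hours after it and ABA cannot be told apart. RBM25 itself stood at 9.15 FPKM in untreated wild type and 2.55 in untreated rbm25-1, and at 9.26 and 1.46 with ABA, so that the mutant groups followed their labels. Each group has 1 deposited value, without values for its samples. No SD can therefore stand beside a level, the depth is unknown, and the measure of error is the authors' q, the adjusted p of Cuffdiff. Whether the samples of a group were separate cultures is not stated, so that q may measure technical spread.

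The large ribosomal subunit joins amino acids in its peptidyl transferase centre and releases the growing chain through an exit tunnel. Most of its proteins are needed in equal numbers, yet in Arabidopsis nearly every one is encoded by several genes that are active together. Ribosomal protein mRNAs are among the most abundant of growing plant cells. Mutants of single genes have embryo, leaf or flower defects, among them the piggyback mutants of L10a (PGY1), L9 (PGY2) and L5, which affect leaf polarity, and short valve1 of L24 (STV1), which affects the fruit and the reinitiation of translation after upstream open reading frames. ABA slows the growth of seedlings.

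The upstream sequences of these genes carry a shared element. The site II element, searched as TGGGCC or TGGGCT on both strands, is a promoter element of Arabidopsis ribosomal protein and cell cycle genes. It occurred in the 250 bases before the annotated gene start of 42 of the 55 genes (76.4%) and of 19.2% of 27443 protein-coding genes, and 30 of the 55 held more than 1. The telo box (AAACCCTAA, both strands), also known from ribosomal protein genes, was found in 4 of the 55 (7.27%, against 2.61% of all genes). The ABA-responsive element, searched as ACGTGGC or ACGTGTC on both strands, was found in 3 of the 55 (5.45%, against 6.39%). The 3 genes of the L10 family are shown, because they differ most among themselves in the results below. Each line gives the 150 bases before the annotated start on the gene's own strand, read from the TAIR10.1 assembly, with these elements in capitals.
AT1G14320 (SAC52, L10), chr1:4887964-4888113, + strand: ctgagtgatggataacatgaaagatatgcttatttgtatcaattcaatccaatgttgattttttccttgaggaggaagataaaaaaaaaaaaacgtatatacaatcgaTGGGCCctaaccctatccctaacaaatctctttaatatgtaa
AT1G26910 (RPL10B, L10), chr1:9321500-9321649, + strand: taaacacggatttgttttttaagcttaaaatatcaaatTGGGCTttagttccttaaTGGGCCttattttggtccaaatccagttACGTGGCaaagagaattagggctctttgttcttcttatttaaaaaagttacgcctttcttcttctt
AT1G66580 (SAG24, L10), chr1:24838940-24839089, + strand: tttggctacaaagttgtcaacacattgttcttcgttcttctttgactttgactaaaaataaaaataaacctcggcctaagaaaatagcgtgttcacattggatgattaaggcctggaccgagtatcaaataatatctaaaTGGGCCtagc
All 3 stretches held a site II element. The ABA-responsive letters stood before RPL10B, whose level differed little between groups, and in these 150 bases they were not found before SAG24, the gene that rose with ABA. A match of letters is a description of the window and not a bound site.

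In untreated wild type the 54 genes ranged from 16.9 to 914 FPKM (fragments counted per length of transcript and relative to all mapped fragments), with a median of 252. The highest was the L14 gene AT4G27090, which stood at 914 FPKM in untreated wild type, 674 with ABA, 870 in untreated rbm25-1 and 693 in rbm25-1 with ABA. The lowest was the L3 gene AT1G61580 (RPL3B), at 16.9, 14.04, 16.3 and 11.1 FPKM in the same order of groups. Of the 54, 7 were under 100 FPKM in untreated wild type. Together the 54 genes summed to 16267 FPKM in untreated wild type and 13236 with ABA, and to 16159 and 13977 in rbm25-1. These sums were 1.78%, 1.49%, 1.75% and 1.61% of the FPKM of all loci.

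**Figure D1:**
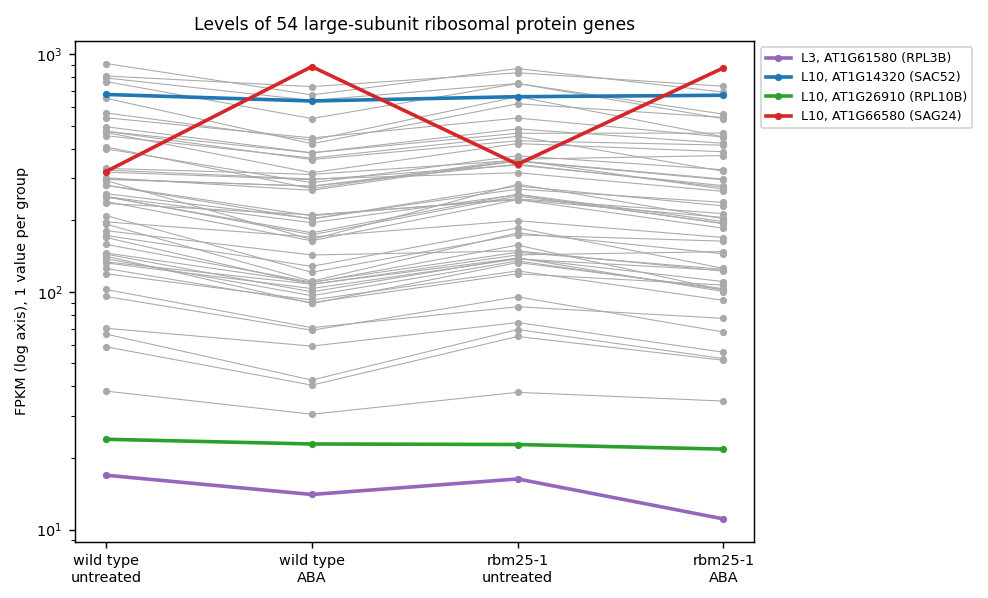
Levels of the 54 genes with a locus of their own, in FPKM on a log axis, with 1 line per gene and 1 authors' value per group. Most lines dip in the ABA groups, while the line of SAG24 goes from 321 to 887 FPKM in wild type and from 344 to 876 in rbm25-1.

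With ABA, wild-type seedlings had less mRNA of most of these genes and far more of 1. At the authors' deposited q under 0.05, 39 of 54 fell (72.2%, where 30.1% of all loci fell) and 1 rose (1.85%, where 26% of all loci rose, and 56.1% moved either way). Of loci at 100 FPKM or more in the higher group, 38.8% fell and 35.5% rose. The falls were moderate, with log2 fold changes from -0.82 to -0.30 in the authors' deposited table, and none reached 2-fold. The median log2 was -0.39 over the 54 genes and -0.07 over all loci, and 53 of 54 values were below 0 against 54.1% of all loci. After centring each locus on loci of like length and GC content, the median log2 of the 54 genes was -0.18, with 44 values below 0 and 9 above. The loci used for centring included these genes, so that their own values enter the medians subtracted from them. The L19 gene AT4G02230 (log2 -0.36), for example, stood at 0 after centring. The part of this in the shift was not tested. The centred median of the 39 genes that fell was -0.27, and AT1G33120 and AT3G62870 among them were then above 0. Centring left the L6 gene AT1G74050 (-0.66), the L17 gene AT1G27400 (-0.66) and the L19 gene AT3G16780 (-0.64) lowest among the large falls named below. It moved the L15 gene AT4G17390 to -0.47, the L4 genes AT3G09630 to -0.40 and AT5G02870 to -0.27, and EMB2296 (AT2G18020) to -0.29, while SAG24 (AT1G66580) stood at 1.51. The site II element stood before 29 of the 39 genes that fell and before 12 of the 15 that did not pass, with the merged L13 gene among the latter. FPKM are relative to the other RNA of a sample, and in such bulk samples fewer cells of a type and less RNA per cell cannot be told apart.

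Of the 2 listed genes for L3, 1 fell with ABA, and both listed genes for L8 fell. L3 reaches into the catalytic centre. Its main gene AT1G43170 (RP1) stood at 407 FPKM in untreated wild type and 272 with ABA (log2 -0.58, q = 0.000132 in the authors' deposited table), and at 362 and 375 FPKM in rbm25-1. RPL3B had log2 -0.27 and q = 0.0726 in the authors' deposited table. L8, which packs against the same centre, has the listed genes AT2G18020 (EMB2296, needed for embryo development) and AT4G36130. EMB2296 went from 653 to 420 FPKM with ABA in wild type (log2 -0.64, q = 0.000132 in the authors' deposited table), and from 619 to 542 in rbm25-1. AT4G36130 went from 158 to 110 FPKM (log2 -0.53), the same direction as its paralogue.

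Both genes for L4, which reaches into the wall of the exit tunnel, fell. AT3G09630, on chromosome 3 from 2953736 to 2955748, went from 210 to 121 FPKM (log2 -0.79, q = 0.000132 in the authors' deposited table). AT5G02870, on chromosome 5 from 657785 to 659733, went from 169 to 107 FPKM (log2 -0.66, q = 0.000132 in the authors' deposited table). In rbm25-1 the L4 levels were 174 and 163 FPKM for AT3G09630 and 143 and 148 for AT5G02870, untreated and with ABA, so that neither gene was more than slightly lower with ABA there. L17, which also lines the tunnel, had unequal genes. AT1G27400 went from 193 to 111 FPKM (log2 -0.80, q = 0.000132 in the authors' deposited table), while the more abundant AT1G67430 went from 810 to 731 (log2 -0.15, q = 0.555). The deposited locus of AT1G67430 spans 3562 bases, where the annotated gene spans 1724, and it overlaps AT1G08937 and AT1G67440. L23a and L26 stand at the tunnel exit. Of the L23a genes AT3G55280 (RPL23AB) fell from 119 to 92.4 FPKM (log2 -0.37), and AT2G39460 (RPL23AA) had log2 -0.08 and q = 0.625 in the authors' deposited table. Both L26 genes fell, AT3G49910 from 767 to 536 FPKM (log2 -0.52) and AT5G67510 from 181 to 143 (log2 -0.34).

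The largest fall before centring was that of an L15 gene. L15 is a core protein of the subunit. AT4G17390 went from 294 to 166 FPKM with ABA (log2 -0.82, q = 0.000132 in the authors' deposited table), and from 284 to 203 in rbm25-1. Its paralogue AT4G16720 fell from 400 to 288 FPKM (log2 -0.47). The deposited locus of AT4G17390 spans 6930 bases of chromosome 4, from 9708683 to 9715612, where the annotated gene spans 1557, and it overlaps AT4G17380 and a pair of other annotated genes. In all, 16 of the 54 annotated genes overlap another gene, among them AT1G27400, AT5G67510 and RPL3B. Whether the authors' counting used strand is not stated, so that reads of overlapping genes may be shared.

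All 3 genes of L12, at the base of the stalk where elongation factors bind, fell, with log2 between -0.50 and -0.43 in the authors' deposited table. Among the 3 genes of L10a, the protein of the mobile stalk, AT2G27530 (PGY1) went from 454 to 366 FPKM (log2 -0.31), AT5G22440 had log2 -0.42, and AT1G08360 went from 297 to 278 (log2 -0.09, q = 0.538 in the authors' deposited table). All 3 L6 genes and all 3 L9 genes fell. The L6 gene AT1G74050 went from 141 to 89.4 FPKM (log2 -0.66, q = 0.000132 in the authors' deposited table), next to its tandem copy AT1G74060, from 125 to 90.1 (log2 -0.48). The L9 gene AT1G33140 (PGY2) went from 58.7 to 40.5 FPKM (log2 -0.54) and AT1G33120 from 38.2 to 30.6 (log2 -0.32). Every listed gene of L7a, L14, L18, L18a and L19 fell as well, with the L19 gene AT3G16780 going from 66.4 to 42.5 FPKM (log2 -0.64, q = 0.000132 in the authors' deposited table). In L7 the listed genes AT3G13580 and AT2G44120 fell and AT2G01250 did not pass (log2 -0.10, q = 0.542 in the authors' deposited table). Outside the list, AT1G80750 of L7 did not pass either (log2 -0.21, q = 0.175 in the authors' deposited table). In L13a AT3G07110 and AT5G48760 fell, and AT3G24830 just missed the threshold (log2 -0.28, q = 0.0502 in the authors' deposited table). The L13 gene AT5G23900 fell (log2 -0.43), and the merged locus of BBC1 went from 305 to 247 FPKM without passing (q = 0.406 in the authors' deposited table).

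The families of L5 and L24 had no gene that passed. L5 binds the 5S ribosomal RNA. Its gene AT3G25520 (ATL5) stood at 319 FPKM untreated and 297 with ABA in wild type, and at 341 and 280 in rbm25-1 (q = 0.506 with ABA in wild type, in the authors' deposited table). RPL5B (AT5G39740) stood at 236 and 211 FPKM in wild type and 244 and 206 in rbm25-1 (q = 0.291 in the same comparison of the authors' deposited table). L24 forms a bridge to the small subunit. STV1 (AT3G53020), on chromosome 3 from 19660516 to 19662025, stood at 325 and 298 FPKM in wild type and 317 and 265 in rbm25-1 (log2 -0.13, q = 0.406 with ABA in wild type, in the authors' deposited table). RPL24A (AT2G36620) stood at 197 and 170 FPKM in wild type and 199 and 169 in rbm25-1 (log2 -0.21, q = 0.165 with ABA in wild type, in the authors' deposited table). All 4 genes had lower values with ABA in both genotypes, and a q that misses the threshold does not show that they were equal.

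**Figure D2:**
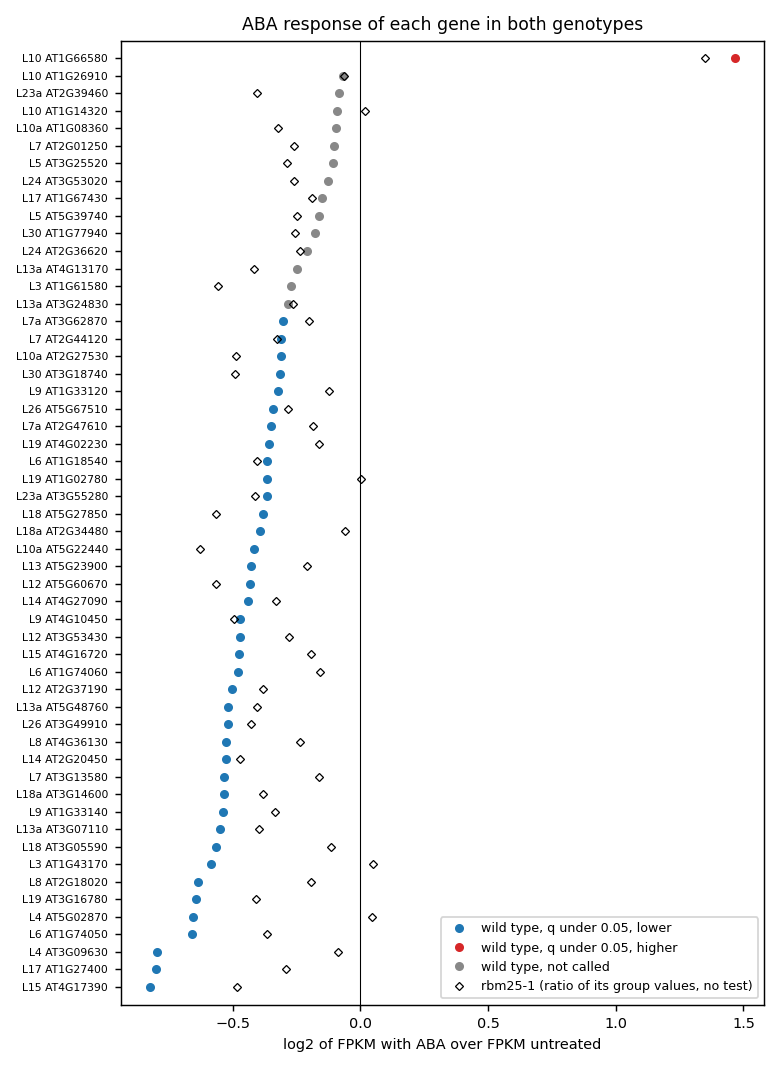
The log2 of FPKM with ABA over FPKM untreated for each of the 54 genes, sorted by the wild-type value. Filled circles are the authors' wild-type values, coloured by their q, and open diamonds are ratios of the 2 rbm25-1 group values, which have no test; 53 circles and 49 diamonds lie below 0.

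L10 was the family that went the other way, through 1 gene. In yeast L10 is among the last proteins added to the large subunit and is required for it to join the small one, and in Arabidopsis it also takes part in antiviral signalling. AT1G66580 (SAG24, named as a senescence-associated gene), on chromosome 1 from 24839162 to 24840612, rose from 321 to 887 FPKM with ABA in wild type (log2 1.47, q = 0.000132 in the authors' deposited table), and stood at 344 and 876 in rbm25-1. AT1G14320 (SAC52), on chromosome 1 from 4888160 to 4889661, stood at 677 FPKM untreated and 636 with ABA in wild type, and at 663 and 672 in rbm25-1 (log2 -0.09, q = 0.578 with ABA in wild type, in the authors' deposited table). AT1G26910 (RPL10B) was rare, at 23.98 and 22.9 FPKM in wild type and 22.8 and 21.8 in rbm25-1 (log2 -0.07, q = 0.707 with ABA in wild type, in the authors' deposited table). SAG24 was thus the highest of the 54 genes in both ABA groups, while it had less than SAC52 in both untreated groups. The sum of the 3 genes went from 1022 to 1545 FPKM in wild type and from 1029 to 1570 in rbm25-1, and the summed FPKM of the other 22 families were lower with ABA in wild type. The coding sequences of the 3 genes are 87.3% to 88.0% identical, so that they differ at many positions.

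**Figure D3:**
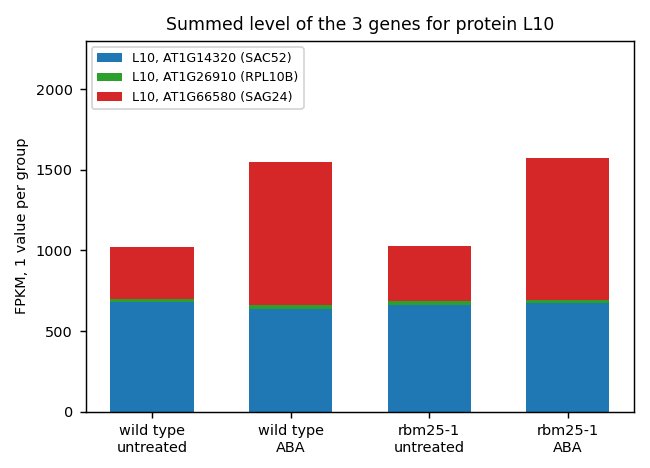
Stacked FPKM of the 3 L10 genes in each group, 1 authors' value per group. The sum is 1022 and 1029 FPKM in the untreated groups and 1545 and 1570 with ABA, and SAG24 makes up the larger part of the latter.

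The make-up of the other families shifted less. SAG24 took 31.4% of the summed FPKM of L10 in untreated wild type and 57.4% with ABA, and 33.4% and 55.8% in rbm25-1, while SAC52 went from 66.3% to 41.1% and from 64.4% to 42.8%. The next widest range was in L30, a protein at the face between the subunits. There AT1G77940 stood at 302 and 268 FPKM in wild type and 356 and 298 in rbm25-1, untreated and with ABA, and AT3G18740 at 795 and 639, and 753 and 536. The share of AT1G77940 was accordingly 27.5% and 29.5% in wild type and 32.1% and 35.8% in rbm25-1. The third was L18, with AT3G05590 (RPL18) at 469 and 317 FPKM in wild type and 421 and 389 in rbm25-1, and AT5G27850 at 566 and 434, and 663 and 449. The share of AT5G27850 was 54.7%, 57.8%, 61.2% and 53.6% in the order of wild type untreated and with ABA and rbm25-1 untreated and with ABA. These shares are taken over the listed genes only, and have no replicate values and no test. The 42 paralogue pairs had coding identities from 68.7% to 99.1%, with a median of 83.6%. The L9 genes AT1G33120 and AT1G33140 were the closest, so that their separate values depend on how the authors' counting split shared reads.

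Without ABA, the mutant had close to wild-type levels of these genes. By the authors' deposited q, 1 of 54 was lower in rbm25-1 (1.85%, where 7.2% of all loci were lower) and 0 were higher (where 6.15% were; 13.3% moved either way), with 2 at an unadjusted p under 0.05 in Cuffdiff. Of loci at 100 FPKM or more, 8.43% were lower and 7.89% higher. The median log2 was -0.01, as it was over all loci, and the values ran from -0.28 to 0.25. Of them 24 were above and 30 below 0, where 48.7% of all loci were above 0. The gene that passed was the L26 gene AT5G67510, on chromosome 5 from 26937812 to 26938492. It stood at 181 FPKM in wild type and 149 in rbm25-1 (log2 -0.28, q = 0.0419 in the authors' deposited table), and no longer passed when p was adjusted within this table alone. The L4 genes AT3G09630, at log2 -0.27 (q = 0.0603), and AT5G02870, at -0.24 (q = 0.0873 in the authors' deposited table), did not pass.

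With ABA, 9 of the genes were higher in rbm25-1 than in wild type, with RP1 of L3 and both L4 genes at the largest log2. The 9 are 16.7% of the 54, where 17.7% of all loci were higher in the authors' deposited table, so that the share is near the background. A single gene was lower (1.85%, where 14.3% of all loci were), 31.9% of all loci moved either way, and of loci at 100 FPKM or more 18.4% were higher and 19.7% lower. Of the 54, 14 had an unadjusted p under 0.05. When p was adjusted within this table alone, 6 of the 9 still passed. The median log2 was 0.08 over the 54 genes and 0.02 over all loci, with 36 values above and 18 below 0, where 52.7% of all loci were above 0. RP1 of L3 stood at 272 FPKM in wild type and 375 in rbm25-1 (log2 0.46, q = 0.00106 in the authors' deposited table). The L4 genes AT5G02870, at 107 and 148 FPKM (log2 0.46, q = 0.000376), and AT3G09630, at 121 and 163 (log2 0.44, q = 0.00214 in the authors' deposited table), were both higher. The L17 gene AT1G27400 stood at 111 and 145 FPKM (log2 0.38, q = 0.00447 in the authors' deposited table). EMB2296 of L8 stood at 420 and 542 FPKM (log2 0.37, q = 0.0128), and PGY2 of L9 at 40.5 and 51.5 (log2 0.35, q = 0.0137 in the authors' deposited table). The others were AT3G16780 of L19 (log2 0.30), RPL18 (0.29) and AT4G17390 of L15 (0.29). All 9 are genes that fell with ABA in wild type, but both comparisons contain the same wild type with ABA, so that the 2 sets of values are not independent. RPL3B was the lower gene, at 14.04 and 11.1 FPKM (log2 -0.34, q = 0.0236 in the authors' deposited table). SAG24 had log2 -0.02 (q = 0.927) and STV1 -0.17 (q = 0.238 in the authors' deposited table).

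The mutant values with ABA moved with the base composition of the transcripts. The GC content of the longest annotated transcript ran from 35.4% to 46.6% over the 55 genes, with a median of 41.8%. Over the 54 genes the Spearman correlation of the log2 of rbm25-1 over wild type with GC content was 0.63 with ABA and -0.40 without. Over all loci with 1 gene it was 0.42 with ABA and -0.04 without. For the ABA response it was -0.36 in wild type and 0.51 in rbm25-1, over the same 54 genes. These are descriptions over genes that share the same libraries, and the part of base composition in the differences was not tested. After centring on length and GC content, the log2 of the L4 gene AT5G02870 went from 0.46 to 0.18 and that of AT3G09630 from 0.44 to 0.15, and that of RP1 to 0.32. The largest centred value among the 9 was then 0.49, of the L17 gene AT1G27400, followed by 0.38 for AT3G16780 of L19, 0.38 for RPL18 (AT3G05590) and 0.36 for PGY2 (AT1G33140). EMB2296 (AT2G18020) had 0.20 and AT4G17390 had 0.16.

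**Figure D4:**
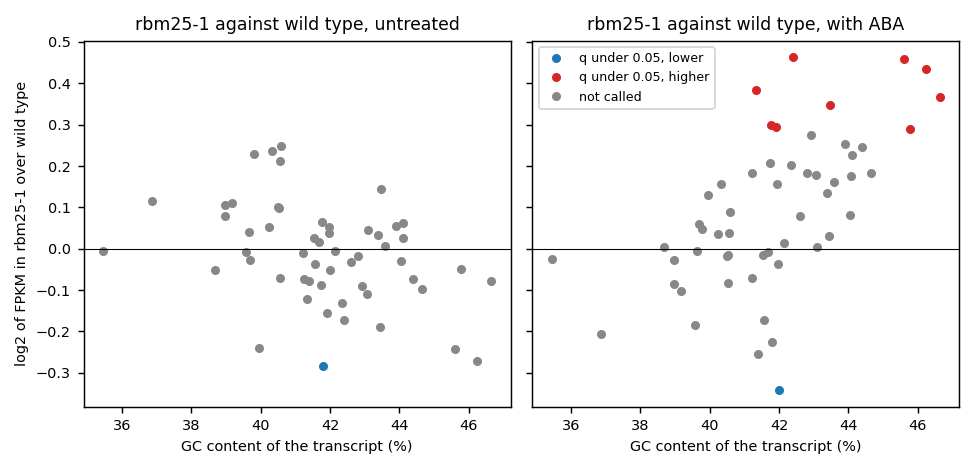
The authors' log2 of FPKM in rbm25-1 over wild type for the 54 genes against the GC content of their longest transcript, untreated on the left and with ABA on the right. With ABA the values rise with GC content (Spearman 0.63), and the 9 genes that passed as higher lie at 0.29 or above.

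The ABA response within rbm25-1 has no deposited test, and its log2 values were computed from the group FPKM. Over the 54 genes the median was -0.28, with 49 values below 0 and 5 above, against -0.02 over all loci. The difference between the genotypes (rbm25-1 minus wild type) had a median of 0.11 over the 54 genes and 0.02 over all loci. This difference was above 0 for 33 of the 54 and for 52.3% of all loci. It was widest for L4 and L3, without any centring, at 0.71 for AT3G09630, 0.70 for AT5G02870 and 0.64 for RP1. Among the genes on the other side were RPL23AA, at -0.32, and RPL3B, at -0.29. For SAG24 it was -0.12, with the rise seen in both genotypes. The Pearson correlation of the 2 ABA responses over the 54 genes was 0.66, and 0.04 over the 53 without SAG24, so that the relation rests on that gene.

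No splicing event of these genes passed the adjusted test in any comparison, and nearly none of all events did. The authors' splicing tables give the percent spliced in (PSI) of each event, and 17, 13 and 17 events carried the identifier of 1 of the 55 genes for ABA in wild type, rbm25-1 untreated and rbm25-1 with ABA. Of these, 4 in each comparison had coordinates outside the named gene, and 4.02%, 3.88% and 3.95% of all events with an annotated gene did the same. The 4 were an event named for RPL5B at AT5G18630 to AT5G18640, and events named for AT3G18740 at AT3G02460, for BBC1 at AT3G59310 to AT3G59340 and for AT1G67430 at AT1G08890, and are not read as events of the ribosomal protein genes. The adjustment was that of Benjamini and Hochberg over each table. Of all events 1 of 10502, 1 of 9849 and 2 of 11170 passed it, in the same order of comparisons. The 0 among these genes is therefore near the share of all events. At an unadjusted p under 0.05 there were 0, 2 and 1 in the authors' deposited tables, where 4.83%, 6.13% and 6.40% of all events had such a p. The event with the widest gap of those was an alternative donor in the L18a gene AT2G34480. Its 2 donor sites on chromosome 2, minus strand, are shown with the first 2 bases of the intron in capitals, from TAIR10.1, because they are the choice the PSI counts.
Donor counted as included, chr2:14533751-14533770: catcaacgagGTacttgttc
Donor counted as excluded, chr2:14533936-14533955: tacgaacgagGTtcgtgcca
The sites lie 185 bases apart, and the included one is the donor of the longest annotated transcript. Its PSI was 89.7% in untreated wild type and 100% in untreated rbm25-1 (unadjusted p = 0.0222, adjusted p = 0.688, from the authors' deposited table). In the authors' deposited table of ABA-treated seedlings it was 90.8% and 100% (unadjusted p = 0.185), so that the same side was higher in both comparisons without passing.

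Of the other events, those at AT1G74060 and PGY2 have a form that joins neighbouring genes. In untreated seedlings an alternative last exon at AT1G74060 of L6 had a PSI of 96.7% in wild type and 93.9% in rbm25-1 (unadjusted p = 0.0169, adjusted p = 0.675, from the authors' deposited table). Its other form joins AT1G74060 to the tandem gene AT1G74050, whose coding sequence is 94.2% identical. With ABA an acceptor of PGY1 had a PSI of 100% in wild type and 99.0% in rbm25-1 (unadjusted p = 0.0351, adjusted p = 0.717, from the authors' deposited table). A first exon of PGY2 had a PSI of 82.7% in untreated wild type, 31.4% with ABA, 86.5% in untreated rbm25-1 and 100% in rbm25-1 with ABA. Its other form joins PGY2 to AT1G33120, the copy with 99.1% identity, and its unadjusted p was 0.484 for ABA, 0.743 for rbm25-1 untreated and 0.293 with ABA in the authors' deposited tables. With ABA in wild type the lowest p belonged to a cassette exon of BBC1, which in the authors' deposited table had a PSI of 95.5% untreated and 100% treated (unadjusted p = 0.0844). A second form of that exon had 92.6% and 100% (unadjusted p = 0.0849 in the authors' deposited table). A donor of RPL10B had a PSI of 0% and 1.56% in the same groups (unadjusted p = 0.190 in the authors' deposited table), and 1.56% in wild type and 0% in rbm25-1 among ABA-treated seedlings (unadjusted p = 0.190). The acceptor of PGY1 had 99.7% and 100% for ABA in wild type (unadjusted p = 0.257 in the authors' deposited table). The BBC1 exon had 95.5% in untreated wild type and 96.6% in untreated rbm25-1, and its second form 92.6% and 94.6% (unadjusted p = 0.403 and 0.376 in the authors' deposited table). With ABA this exon had 100% in wild type and 95.6% in rbm25-1, and its second form 100% and 93.3% (unadjusted p = 0.366 and 0.373 in the authors' deposited table). The last exon at AT1G74060 had 96.0% in wild type and 94.6% in rbm25-1 in the authors' deposited table of treated seedlings (unadjusted p = 0.307). Events of SAC52, RPL3B and AT4G10450 of L9 had equal PSI in both groups of a table.

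Other genes of translation moved with the ribosomal protein genes under ABA in wild type. Of all loci 30.1% fell and 26% rose there, and the list values are not centred on length and GC content. In the rest of the cytosolic large subunit 42 of 69 tested genes fell and 0 rose (median log2 -0.33), led by AT2G33370, at log2 -1.06 (278 and 134 FPKM), and AT2G40010, at -0.98, in the authors' deposited table. In the small subunit 51 of 81 fell and 0 rose (median log2 -0.36), led by AT1G15930 (log2 -0.90) and AT2G41840 (log2 -0.89 in the authors' deposited table). Of the nuclear genes for the plastid large subunit all 20 tested fell (median log2 -0.82), with RPL4 (AT1G07320) at log2 -1.40 and EMB3136 at -1.29 in the authors' deposited table. Of 31 ribosome assembly factors 21 fell and 2 rose (median log2 -0.34), with the fibrillarin gene FIB2 at log2 -1.16 and NAP57 at -1.002 in the authors' deposited table. Of 11 elongation factor genes 8 fell (median log2 -0.54), among them AT1G07920 (log2 -0.78) and AT5G60390 (log2 -0.74 in the authors' deposited table).

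In rbm25-1 with ABA the counts differed between these lists, beside 17.7% of all loci higher and 14.3% lower. The list values are not centred on length and GC content. Over all loci with 1 gene, log2 rose with GC content in this comparison (Spearman 0.42). The part of base composition in the list values was not tested. Of 32 assembly factors 15 were higher and 1 lower than in wild type (median log2 0.30), led by NAP57, from 19.8 to 33.9 FPKM (log2 0.78), and AT3G12860 (log2 0.69 in the authors' deposited table). Of 11 elongation factor genes 7 were higher (median log2 0.42), with AT1G07920 at log2 1.00 and LOS1 at 0.69 in the authors' deposited table. The small subunit had 11 of 81 higher and 2 lower (median log2 0.03), with AT5G39850 at log2 -0.69 and AT2G41840 at 0.46 in the authors' deposited table. The rest of the large subunit had 2 of 69 higher and 8 lower (median log2 -0.07), with AT3G59540 at log2 -0.63 and AT3G09200 at 0.46 in the authors' deposited table. Of the plastid large subunit 4 of 20 were higher and 0 lower (median log2 0.01), with EMB3126 at log2 0.39 and RPL9 at 0.37 in the authors' deposited table. Without ABA 2 of 31 assembly factors were higher in rbm25-1 and 1 lower, and 1 of 11 elongation factor genes was higher and 1 lower. In the small subunit 2 of 81 were lower, in the rest of the large subunit 1 of 69, and in the plastid large subunit 0 of 20. None of these last lists had a higher gene. Of all loci 6.15% were higher and 7.2% lower in that comparison. The medians of the lists lay between -0.06 and 0.11.

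**Figure D5:**
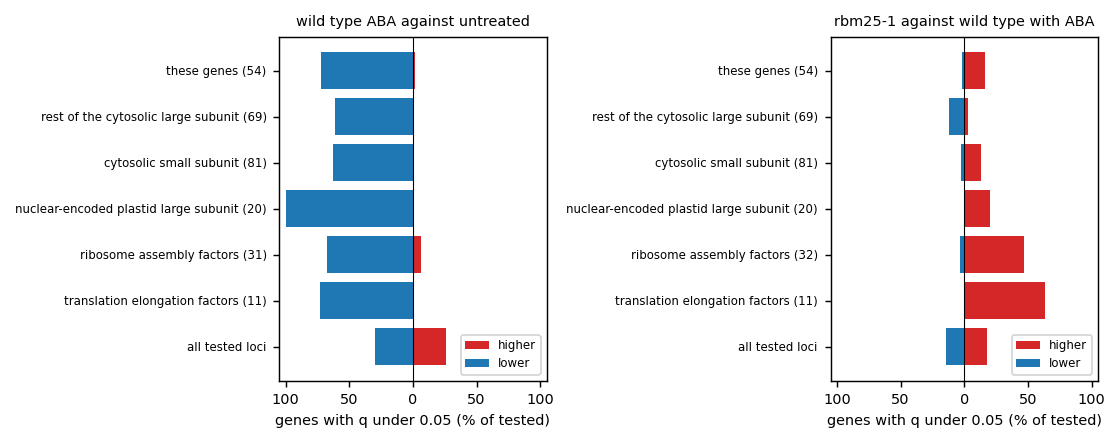
Percent of tested genes with the authors' q under 0.05, lower to the left in blue and higher to the right in red, for the 54 genes, other gene lists (number tested in brackets) and all loci. With ABA in wild type the bar of the 54 genes reaches 72.2% lower, and in rbm25-1 against wild type with ABA it reaches 16.7% higher, near the 17.7% of all loci.

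Markers of cell types moved with ABA too, in wild type beside 30.1% of all loci lower and 26% higher. The summed FPKM of 13 markers of dividing cells was 104 in untreated wild type and 86.2 with ABA, and 110 in untreated rbm25-1, with 7 lower and 3 higher with ABA in wild type. Cyclin D3;1 (CYCD3;1), with 16.1 and 6.46 FPKM, had the lowest log2 of the 13 in the authors' deposited table (-1.31), and the highest was 0.82. Over the 12 of these markers tested in both groups with ABA, the sum was 85.7 FPKM in wild type and 89.9 in rbm25-1. The 12 root markers tested summed to 159 and 69.5 FPKM in wild type and 161 in untreated rbm25-1, with 9 lower and 2 higher. Their log2 with ABA in wild type ran from -2.82, of HKT1, to 0.61 in the authors' deposited table. Over the 10 root markers tested in both groups with ABA, the sum was 68.9 FPKM in wild type and 67.4 in rbm25-1. The 10 leaf photosynthesis markers summed to 15326 and 4633 FPKM in wild type and 18259 and 7117 in rbm25-1, with 9 lower, and RBCS1B at log2 -5.67 in the authors' deposited table. In rbm25-1 against wild type with ABA 8 of these 10 were higher, 2 of 12 dividing-cell markers and 2 of 10 root markers were higher, and 0 were lower in each list. Of all loci 17.7% were higher and 14.3% lower. None of the markers tested was at 0. Their part in the values of the ribosomal protein genes was not tested.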

How the data were processed

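RNA-seq of 12 samples in 4 groups of 3 was analysed from the authors' deposited comparison tables. Per the submitters' processing notes, the tools were Cufflinks 2.2.1, Cuffdiff without a version, TopHat2 2.0.13 and Trimmomatic 0.32, on the build TAIR10. Per the file headers, the deposited gene tables hold an FPKM per group, a log2 fold change without pseudocount, a p-value and a q-value, and the deposited splicing tables hold a PSI in percent per group, its difference as a score in points, and an unadjusted p-value. The splicing program is not given in the sources used here.

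The tables hold no value per sample and no read totals, so that no test over replicates was run. A gene was called at q under 0.05. Splicing p-values were adjusted here by Benjamini-Hochberg within each table, leaving out 33, 28 and 28 damaged events. Levels of a group were the same in each table that held it. Symbols, transcripts, GC content and sequences came from RefSeq on TAIR10.1, on which 96.8%, 97.0% and 96.5% of deposited introns had GT-AG ends, and all 55 identifiers matched. Coding identity came from a pairwise alignment (biopython 1.88). Python 3.11.15 and pandas 2.3.3 were used, and the centring and adjustment were tested on simulated data. Centring used 10 bins each of length and GC content. Genes given in full were the 6 largest called changes each way per comparison, the highest and lowest level, the L4, L5, L10 and L24 genes, the 6 genes with the lowest splicing p-values per table (events outside the named gene are only located) and the 3 families with the widest change of share, with the 2 largest called changes of other lists. Genes named beside these were chosen after their values were seen. One upstream sequence is not reported here. The members and lists were chosen with earlier results of these data known.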

Additional observations from a re-analysis of the deposited data

How the results depend on the processing

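Of 82 recomputed values 65 stayed, 17 moved and 0 reversed, where a count stayed within 1.5 times and a median within 0.1 on the log2 scale. By that measure the median of untreated rbm25-1 stayed, but it lies so near 0 that its sign turned, from -0.01 to 0.02, with centring on length and GC. Requiring 1.5-fold left 7 of the 39 falls with ABA in wild type, and 2-fold left 0. Centring on length and GC gave 3 genes above 0 among those called with ABA in wild type, which are SAG24 and the called falls AT1G33120 and AT3G62870, and it moved the median log2 from -0.39 to -0.18. The 1 gene lower in untreated rbm25-1 became 0 with adjustment within the table, at q under 0.01, at 1.5-fold and at 2-fold. The 1 gene lower in rbm25-1 with ABA became 0 at q under 0.01, at 1.5-fold and at 2-fold. The 9 higher became 6 with adjustment within the table, which counts as stayed at the limit of 1.5 times. They became 4 at q under 0.01 and 0 at 1.5-fold and at 2-fold. Splicing events went from 0 to 2 in untreated rbm25-1 at an unadjusted p under 0.05, to 1 when 10 points of PSI were required too, and from 0 to 1 in rbm25-1 with ABA. No paired analysis was possible because the tables hold 1 value per group, and for the same reason no replicate could be left out. The depth is unknown, so that small differences of the lower genes cannot be weighed against counting error. Counting events by position and the median without SAG24 were added after the data were seen.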
